A study of Mus musculus with 24 samples.

Results

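Chromatin accessibility at 2 weeks (W2) and at 6 weeks (W6) of SOX9 expression was compared in skin epidermal stem cells (EpdSCs) of living mice. The peak lists of both time points were merged wherever peaks overlapped by at least 1 bp, which gave 82607 regions of the 134385 that the merged peaks of all 12 lists of the study make up. Of these, 55349 held a peak at both time points, 20150 at W6 only and 7108 at W2 only. All cells came from the back skin of male CD1 mice of genotype K14rtTA; TRE-myc-Sox9, in which the Krt14 promoter drives the doxycycline (DOX) sensor in basal keratinocytes and DOX switches on a myc-tagged Sox9 transgene. DOX was begun at postnatal day 21, so the W2 mice were 35 days old and the W6 mice 63 days old, and time on DOX and age cannot be told apart. The sort was the same at both times, negative for CD31, CD45, CD117, CD140a and CD34 and high for CD49f and Ly6A, a gate meant to keep integrin-rich basal cells and to leave out blood, vessel, pigment and stromal cells as well as CD34+ follicle stem cells. Several mice were pooled for each of the 2 replicates of a group, and the authors merged the replicates before calling peaks. Each time point was therefore 1 list, and no value below has an error between animals or a test of the difference. Shares are given with Wilson 95% intervals that cover counting error only. Lists from the same genotype before DOX (D0, postnatal day 21), at 1 week (W1, postnatal day 28) and at 12 weeks (W12) were read alongside. For W12, skin of newborn mice had been grafted onto hosts without a full immune system, and the time on DOX cannot be told apart from the graft. Because the samples are bulk, fewer cells of a type and less open chromatin per cell cannot be told apart either.

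In ATAC-seq the transposase Tn5 cuts DNA that is free of tightly packed nucleosomes, and a peak marks a stretch cut more often than its surroundings. Many peaks away from genes lie at enhancers, where transcription factors bind short DNA words and hold the chromatin open. A peak alone does not show an enhancer, and no enhancer mark was read here. SOX9 is the pioneer factor of the hair follicle stem cell fate, and its sustained expression in EpdSCs leads towards basal cell carcinoma, a tumour of follicle-like cells. AP1 factors (FOS and JUN dimers) and RUNX factors bind many enhancers of activated, wounded and tumour epithelium, while GATA3, p63 and KLF4 belong to the epidermal programme. TEAD factors carry the output of the YAP and TAZ growth pathway.

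The sequences below were picked for their word matches, to show at the base level the words that are counted further on, and are not typical of their classes. Among regions named for their score or ratio, W2-only ones near Adgrf5 and Ikzf2 and shared ones in Ntng1 and Tmem30c had none of the words around the summit. The W6-only promoters of Lgr5, Cd34 and Twist1 had none either, nor had several exclusive regions of the Runx2, Tgfbr2 and Zbtb20 loci. Each sequence is 121 bp around a peak summit, on the plus strand of GRCm38 (RefSeq genome sequence). The capitals mark 5 words on either strand. The AP1 word is TGACTCA, which on the other strand reads TGAGTCA. The SOX word sought was ACAATAG, with the close relative ACAATGG also counted. RUNX proteins favour the word TGTGGT, whereas GATA proteins favour the word AGATAA, and the TEAD proteins favour the word GGAATG instead. A match is a description of the letters and not a measured binding site. The first is the summit of the W6-only region of highest score (chr14:82065417-82065537), intergenic, in which an AP1 word stands 1 base from a SOX word. The second is a W6-only region in an intron of Khdrbs2 (chr1:32444044-32444164). The next pair are W2-only regions in introns of Col4a4 (chr1:82528090-82528210) and Abhd2 (chr7:79317659-79317779). The pair after it lies in shared regions that scored much higher at W6, near Foxa2 (chr2:147851555-147851675) and Mecom (chr3:29768724-29768844). The line after that is from a shared region near Rbpms that scored much lower at W6 (chr8:33993056-33993176). The last pair was chosen after the values were seen, from an intron of Gata3 (W2 only, chr2:9860270-9860390) and from the Runx2 locus (W6 only, chr17:44569087-44569207).
W6 only, intergenic: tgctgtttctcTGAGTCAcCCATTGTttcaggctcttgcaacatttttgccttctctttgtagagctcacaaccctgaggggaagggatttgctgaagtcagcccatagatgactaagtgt
W6 only, Khdrbs2 intron: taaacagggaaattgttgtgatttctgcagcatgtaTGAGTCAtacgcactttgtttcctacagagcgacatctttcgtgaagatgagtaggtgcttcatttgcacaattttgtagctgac
W2 only, Col4a4 intron: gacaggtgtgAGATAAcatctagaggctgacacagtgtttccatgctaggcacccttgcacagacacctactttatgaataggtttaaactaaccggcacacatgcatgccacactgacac
W2 only, Abhd2 intron: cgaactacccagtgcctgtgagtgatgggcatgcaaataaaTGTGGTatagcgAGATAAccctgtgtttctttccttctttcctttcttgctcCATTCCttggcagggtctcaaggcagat
Higher at W6, near Foxa2: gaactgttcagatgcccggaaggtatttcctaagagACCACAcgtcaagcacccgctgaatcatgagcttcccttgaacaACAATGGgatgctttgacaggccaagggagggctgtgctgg
Higher at W6, near Mecom: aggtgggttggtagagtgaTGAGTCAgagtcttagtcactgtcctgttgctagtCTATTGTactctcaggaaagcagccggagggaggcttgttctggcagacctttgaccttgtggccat
Lower at W6, near Rbpms: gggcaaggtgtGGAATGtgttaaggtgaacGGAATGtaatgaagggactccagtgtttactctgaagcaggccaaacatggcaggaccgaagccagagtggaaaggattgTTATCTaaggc
W2 only, Gata3 intron: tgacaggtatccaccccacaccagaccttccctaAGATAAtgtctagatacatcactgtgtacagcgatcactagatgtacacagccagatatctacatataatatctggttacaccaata
W6 only, Runx2 locus: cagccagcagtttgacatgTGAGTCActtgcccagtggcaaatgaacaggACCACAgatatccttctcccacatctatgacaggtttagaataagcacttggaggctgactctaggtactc

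The lists held 64095 peaks at W2 and 75956 at W6, with median widths of 428 and 454 bp and a lowest deposited −log10 q-value of 4.21 and 5.74. All 6 keratinocyte markers (Krt5, Krt14, Trp63, Itga6, Itgb4 and Col17a1) had a promoter peak at both times, with scores that summed to 82.7 at W2 and 78.9 at W6. Of 9 immune markers, none had a promoter peak at W2 and Cd74 alone, which serves antigen presentation, had one at W6 (3.92), while the defining gene Ptprc had none. Fibroblast markers (2 of 7 with a peak, sum 23.4 and 20.7), the endothelial marker Kdr (1 of 5, 5.85 and 6.28), melanocyte markers (3 of 6, 103 and 99.5), sebocyte markers (2 of 3, 31.3 and 38.6) and muscle markers (0 of 3) had the same number of peaks at both times. Melanocyte markers had the highest sum of these lists, from 3 genes that did not move together: Mitf, the melanocyte master factor, scored 58.1 at W2 and 53.4 at W6, Dct, an enzyme of melanin synthesis, 37.4 and 25.3, and Pmel, which shares its promoter with Cdk2, 7.53 and 20.8, while Kit, Tyr and Mlana had no promoter peak. The part of other cell types in the results below was not tested. Surface markers of hair follicle stem cells went from 1 to 3 of 3, with a sum of 5.42 at W2 and 22.7 at W6, as Cd34 and Lgr5 gained a promoter peak. Sox9 itself had an exon 3 peak at D0 (13.5), W2 (15.1), W6 (9.22) and W12 (8.84) and none in the list labelled W1, so these peaks did not separate transgene from endogenous gene. A peak there before DOX and none after 1 week of DOX is not what the transgene would give, so this exon does not check the labels of the D0 and W1 lists. They were used as given, and shares at D0 alone or at W1 alone rest on them, whereas shares with a peak in either do not depend on which list is which.

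The W6 list held more regions of its own than the W2 list. W6-only regions made up 24.4% of the 82607 regions, W2-only regions 8.6% and shared regions 67.0%. This excess depends on the length of the lists: with each list limited to its 57334 peaks of highest score, 10836 regions were W6 only and 9823 were W2 only, a log2 ratio of 0.14 in place of 1.503. With a common minimum on the deposited −log10 q-value (14.5) in place of the score the log2 ratio was 1.85, so that the number gained over the number lost was not settled by these files.

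Both exclusive classes were made of small, mostly distal peaks. The score is the authors' normalized peak score, whose lowest value kept was 3. Its median was 4.53 in W2-only and 4.41 in W6-only regions, against 11.5 at W2 and 11.6 at W6 in shared regions. Median widths were 268 bp, 311.5 bp and 562 bp in W2-only, W6-only and shared regions. A score of at least 10 was reached by 392 W2-only regions (5.51%) and 1005 W6-only regions (4.99%). Weak peaks were the least shared ones: of W6 regions with a score from 3 to 4, 68.8% had no W2 peak, and of those with a score of 20 or more only 0.439% had none. For W2 the shares without a W6 peak were 37.3% and 0.190%. The centre of a region lay within 1 kb of an annotated transcription start site (TSS) in 7.40% of W2-only, 7.18% of W6-only and 23.7% of shared regions. Introns held 45.7%, 41.3% and 34.8% of the classes and intergenic sequence 44.2%, 48.3% and 38.9%. Median distances to the nearest TSS were 28764 bp for W2-only and 28945 bp for W6-only regions, and 16624 bp for shared regions. An exclusive region was within 500 bp of a shared one in 10.9% (W2 only) and 9.81% (W6 only) of cases, so few lay at the edge of a peak present at both times.

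The other time points, which took no part in the choice of the classes, separated them. A peak before DOX was more frequent in W2-only than in W6-only regions, and a W12 peak was more frequent in W6-only regions. A D0 peak was present in 46.0% of W2-only regions (44.8 to 47.1%) and 18.6% of W6-only regions. The first of these shares was 55.5% with lists of equal length and 73.3% with the common −log10 q-value, where the W12 share of W6-only regions was 78.5% in place of 52.5%. A W12 peak was present in 52.5% of W6-only regions (51.8 to 53.2%, 10576 regions) and 33.8% of W2-only regions. Of W2-only regions, 3993 (56.2%) held a peak at D0 or W1, and 2173 (30.6%) did so and held none at W12. Another 2531 (35.6%) held a peak at W2 and in no other in vivo list. Of W6-only regions, 6907 (34.3%) held a peak at W12 and none at D0 or W1, 5289 (26.2%) had been open at D0 or W1, and 7954 (39.5%) were in the W6 list alone. Shared regions held a D0 peak in 77.3% and a W12 peak in 91.3% of cases, and 10723 of them (19.4%) had none at D0 or W1.

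**Figure D1:**
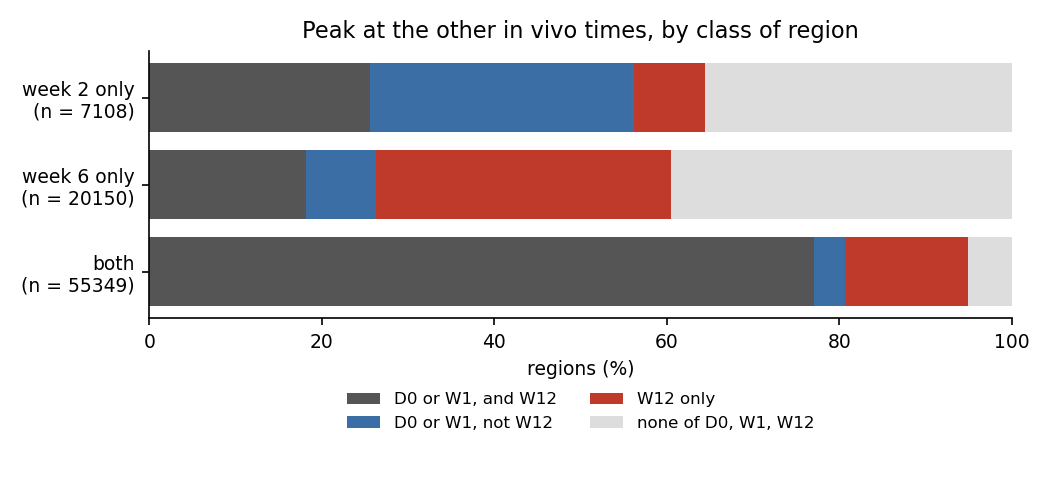
Stacked bars of the percent of W2-only, W6-only and shared regions by presence of a peak at D0 or W1 and at W12. The W2-only bar is mostly made of regions open earlier (56.2%), whereas 34.3% of W6-only regions were open at W12 and not before W6.

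Presence at the outer time points followed peak strength. Of W6-only regions with a score from 3 to 4, 36.9% had a W12 peak, against 93.4% of those from 10 to 20 and 62 of the 63 with a score of 20 or more. Of W2-only regions, 36.3% of those with a score from 3 to 4 and 22 of the 30 with a score of 20 or more had a D0 peak. The 3267 W2-only regions with a D0 peak had a median score of 6.77 at D0 and 4.98 at W2, and 66.8% of them scored higher at D0. The 3518 with a W1 peak had medians of 7.97 at W1 and 4.89 at W2. The 10576 W6-only regions with a W12 peak had medians of 5.10 at W12 and 5.01 at W6. W6-only regions with a D0 peak had medians of 4.84 at D0 and 4.60 at W6, with 53.8% higher at D0, and those with a W1 peak 5.33 at W1 and 4.36 at W6. In both classes the median was thus higher in the early list, as a description of these lists. In the culture lists of the study, 20.8% of W2-only and 30.8% of W6-only regions held a peak in EpdSCs without DOX, and 19.0% and 27.8% in EpdSCs with wild-type SOX9.

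The strongest W6-only regions were distal and absent from D0 and W1, and all of the 6 of highest score had a W12 peak. The first, chr14:82065123-82065926, scored 36.1 at W6 and 20.9 at W12, with a fold enrichment of 17.7 at W6, and held the AP1 and SOX words printed above. It lay far from any gene and was open in all 7 culture lists. The second, chr3:137150383-137150937, scored 33.9 and 23.3 and lay 190407 bp from the TSS of Emcn, an endothelial sialomucin. The others scored 32.3 and 24.4 (9124 bp from Dynap), 31.4 and 36.3 (63726 bp from Sybu, which links vesicles to kinesin), 31.1 and 18.4 (an intron of Khdrbs2, an RNA-binding protein) and 29.9 and 16.8 (an intron of Fam135b) at W6 and W12. Distance to a gene does not show which gene a region serves.

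The strongest W2-only regions were already open before DOX, unlike those of W6. The first, chr1:82527856-82528507 in an intron of Col4a4, a basement membrane collagen, scored 37.1 at D0, 41.3 at W1 and 46.3 at W2 and was missing at W6 and W12. The second, chr17:43329726-43330456, 30360 bp from Adgrf5, an adhesion G-protein coupled receptor, scored 11.02, 17.1 and 28.2 at D0, W1 and W2, and 4.98 at W12. The region chr11:91776481-91776978, 199172 bp from Kif2b, a mitotic kinesin, scored 27.7, 22.2 and 27.9 and was missing at W12. These tall peaks were thus read in 3 lists in a row before they dropped out of the W6 list. In an intron of Pkib, an inhibitor of protein kinase A, the scores were 20.5, 19.1 and 27.3, with 3.69 at W12. In an intron of Abhd2, a lipid hydrolase, they were 18.8, 17.7 and 27.1, with 11.7 at W12. Near Ikzf2 (40931 bp), a zinc finger factor of lymphocytes, they were 10.9, 7.96 and 24.4, with no W12 peak. All 6 had peaks at D0 and W1, 3 of them none at W12.

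Where both lists held a peak, most scores differed by less than 2-fold. The totals of the scores are nearly equal in all in vivo lists, so a median ratio near 0 and like numbers of higher and lower regions are largely set by that scaling. The Spearman correlation of the scores was 0.803 over 55349 regions, which share a library at each time and are not replicates. The median log2 ratio of W6 over W2 was -0.06, with quartiles of -0.44 and 0.35 and a range from -3.80 to 3.60. A ratio of at least 2-fold up was seen in 3541 regions (6.4%) and of at least 2-fold down in 3477 (6.28%). The region with the largest ratio, chr2:147851194-147851950, lay 194376 bp from Foxa2, a forkhead pioneer factor, and scored 3.97 at W2, 48.3 at W6 and 22.9 at W12. An intronic region of Sntg1 (chr1:9153474-9154273) went from 3.11 to 31.0 (log2 3.31), an exonic one of Ntng1 (chr3:109871932-109872557) from 4.42 to 37.5 (log2 3.08), and one 228883 bp from Mecom, a zinc finger oncogene, (chr3:29768533-29769104) from 3.97 to 33.6 (log2 3.08). None of these 4 had a peak at D0 or W1, so W2 was the first list in which they appeared.

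The 4 shared regions with the lowest ratios had peaks at D0 and W1 too. A region in an intron of Plcb1, a phospholipase of G-protein signalling, (chr2:135175482-135176265) scored 126 at D0, 83.8 at W1 and 74.3 at W2, against 5.33 at W6 and 12.5 at W12, a log2 ratio of W6 over W2 of -3.80. An exonic region of Tmem30c (chr16:57276316-57277151) scored 26.7, 18.9, 39.3 and 3.76 at D0, W1, W2 and W6 and was missing at W12. The region 63219 bp from Rbpms, an RNA-binding protein, (chr8:33992756-33993407) scored 59.9, 56.3, 64.5 and 6.46 in the same order, and one in an intron of Soat1, which esterifies cholesterol, (chr1:156470348-156470948) 15.4, 16.7, 39.4 and 3.95. The Plcb1 and Rbpms regions had thus been tall throughout, and those of Tmem30c and Soat1 were highest at W2. In all 4 the W12 score, where there was a peak, was higher than the W6 score and lower than the W2 score.

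The DNA words under the regions differed most between the classes for AP1 and GATA. W6-only regions held AP1 and RUNX words more often, and W2-only regions GATA, TEAD and FOX words. In the central 200 bp, AP1 was found in 26.2% of W6-only regions (25.6 to 26.8%), 11.7% of W2-only regions (11.01 to 12.5%), 18.5% of shared regions and 19.8% of all 82607. GATA was found in 7.64% of W6-only, 16.2% of W2-only and 8.16% of shared regions (8.73% of all). RUNX was found in 19.0%, 12.7% and 13.6% (14.9% of all), and TEAD in 13.3%, 19.3% and 13.3% (13.8% of all). FOX (TGTTTAC) was found in 2.39%, 4.66% and 2.88% (2.91% of all). SOX, the word of the induced factor, differed little between the exclusive classes, at 7.07% and 6.25% with 5.39% in shared regions (5.87% of all). Across the main analysis and the 8 settings that give these shares the order of the exclusive classes did not turn, with a W6-only over W2-only ratio of 2.04 to 2.28 for AP1, 1.27 to 1.59 for RUNX, 1.08 to 1.31 for SOX and 0.450 to 0.604 for GATA.

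The remaining words lay closer together. In W6-only, W2-only and all regions, the CTCF word was found in 3.34%, 2.48% and 2.42%, KLF (GGGTGTGG) in 4.73%, 3.39% and 4.35%, ETS (CAGGAAG) in 10.8%, 9.67% and 10.1%, and the E-box (CAGCTG) in 13.3%, 14.3% and 13.7%. LHX (TAATTA) was found in 4.29%, 4.28% and 3.64%, TCF/LEF (ATCAAAG) in 3.002%, 3.15% and 2.78%, and NF-kB in 0.953%, 0.774% and 0.961%. The paired p63 word was found in 1.24%, 1.22% and 1.02%, GLI (TGGGTGGTC) in 0.0893%, 0.0844% and 0.0896%, NFI in 0.0397%, 0.0844% and 0.0508%, and TBX (AGGTGTGA), taken as a control, in 1.68%, 1.27% and 1.35%. None of the 17 words contains another, though KLF and RUNX matches can share bases, and all were sought on both strands. None of them was found in 27.2% of W6-only, 30.0% of W2-only and 36.1% of shared regions. Mean GC content was 49.6% in W6-only, 49.4% in W2-only and 53.7% in shared regions, so base composition was close between the exclusive classes.

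**Figure D2:**
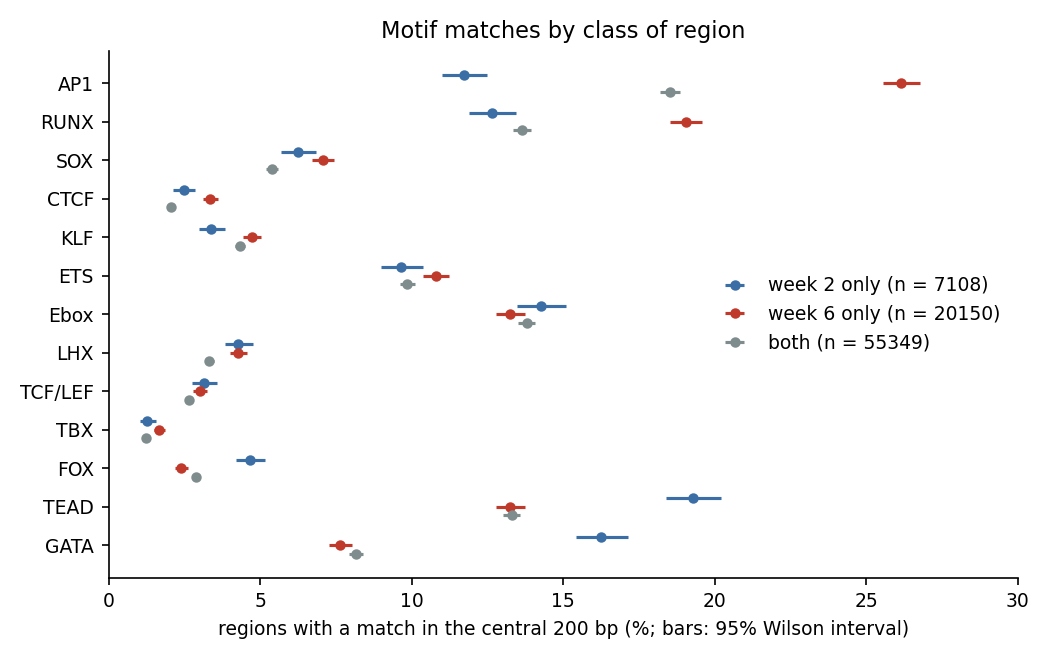
Percent of regions with each of 13 words in the central 200 bp, by class, with Wilson 95% intervals. AP1 (26.2% W6 only, 11.7% W2 only) and GATA (7.64% and 16.2%) lie farthest apart.

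The split was wider among strong peaks. In exclusive regions with a score of at least 10, AP1 was found in 43.0% of W6-only and 9.44% of W2-only regions, GATA in 7.56% and 24.2%, and SOX in 12.04% and 5.87%. A GATA or a TEAD word was found in 43.6% of these strong W2-only regions and 19.8% of the W6-only ones. AP1 and RUNX words stood together in 9.65% and 1.53%. Below a score of 4 the AP1 shares were 22.1% and 10.8%, so weak peaks showed the same order.

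AP1 words lay closer to the summit, where Tn5 cuts are densest, in W6-only than in W2-only regions. Of the AP1 matches near summits, 51.4% in W6-only and 39.1% in W2-only regions lay within 50 bp of the summit. The density of AP1 matches in the central 80 bp over that in the outer 200 bp was 5.02 in W6-only and 2.53 in W2-only regions. The same ratio was 0.724 and 1.30 for GATA, 1.21 and 1.52 for TEAD, 1.33 and 0.919 for RUNX, and 1.36 and 1.44 for SOX. GATA words were thus more frequent at the summit than beside it in W2-only regions and less frequent in W6-only regions.

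**Figure D3:**
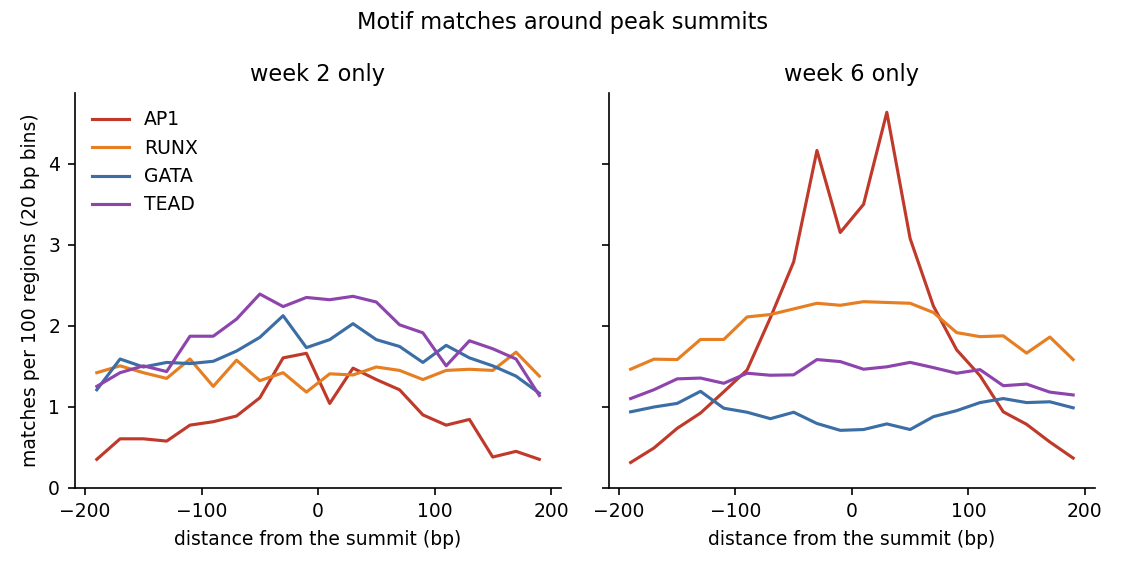
Matches of AP1, RUNX, GATA and TEAD words per 100 regions in 20 bp bins by distance from the summit (bp), for W2-only and W6-only regions. The AP1 curve of W6-only regions reaches 4.64 per 100 regions near the summit, above every other curve.

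Splitting the classes by history separated AP1 from SOX. W6-only regions first seen at W6 and open at W12 held AP1 in 39.8% and RUNX in 23.2% of cases (n = 6907). Those first seen at W6 and absent at W12 held AP1 in 18.9% and SOX in 9.19% (n = 7954). Those with a peak at D0 or W1 held AP1 in 19.3% and SOX in 3.10% (n = 5289). SOX words thus went with the absence of an early peak, and AP1 words with presence at both late times. W2-only regions without an early peak held SOX in 9.63% (n = 3115), against 3.61% of those with one (n = 3993), where GATA was found in 18.2%. Shared regions without an early peak held SOX in 12.4%, against 3.70% of those with one. With the W1 list left out and D0 alone as the early list, the SOX shares were 8.51% and 3.58% in W2-only and 11.3% and 3.64% in shared regions, and AP1 stood at 37.1%, 17.7% and 23.6% in the corresponding W6-only sets.

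Scores of shared regions followed the same words. They come from the same 2 lists that define the exclusive classes, so this is the same contrast read again and not separate support. Shared regions at least 2-fold higher at W6 held AP1 in 33.1%, RUNX in 18.9%, GATA in 6.50% and TEAD in 12.1% of cases. Those at least 2-fold lower held them in 14.4%, 12.8%, 16.9% and 20.97%. From the lowest to the highest decile of the log2 ratio, AP1 went from 15.4% to 31.0%, RUNX from 13.03% to 18.3%, GATA from 15.3% to 6.44% and TEAD from 20.1% to 12.2%. SOX differed little between these deciles (6.45% and 7.33%), as did the share near a TSS (8.76% and 10.2%) and GC content (50.1% and 50.9%). Regions without a D0 or W1 peak made up 16.3% of the lowest and 43.5% of the highest decile.

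**Figure D4:**
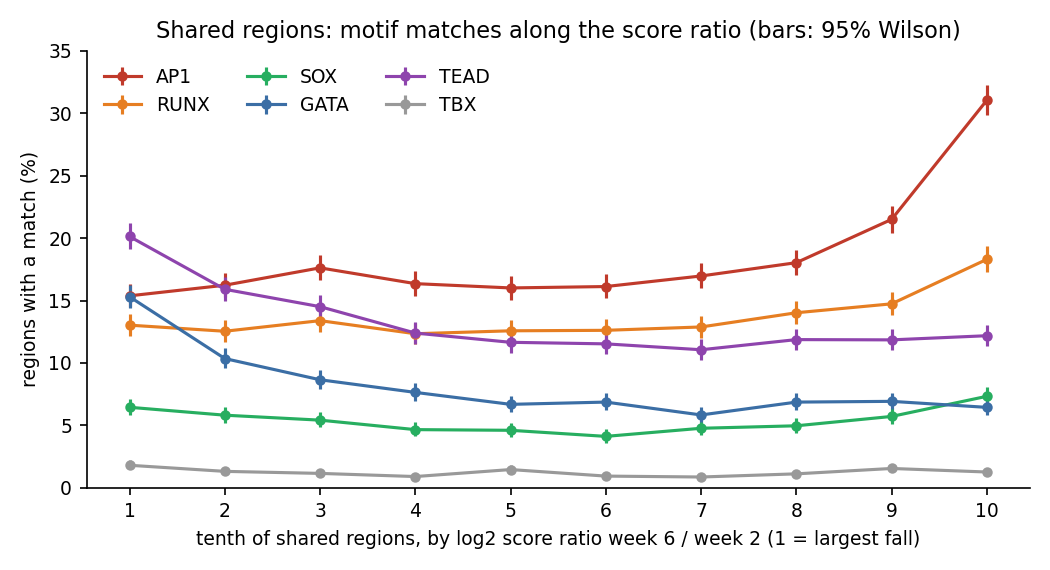
Percent of shared regions with each word by decile of the log2 score ratio of W6 over W2, from lower at W6 (1) to higher at W6 (10). AP1 goes from 15.4% to 31.0% and GATA from 15.3% to 6.44%.

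Neighbouring intervals share a list with this one and are set beside it as values only. Regions gained from W1 to W2, from W2 to W6 and from W6 to W12 held AP1 in 22.4%, 26.2% and 32.8% of cases and SOX in 10.9%, 7.07% and 4.05%. Regions lost in the same intervals held GATA in 17.8%, 16.2% and 8.89%, and SOX in 2.39%, 6.25% and 8.63%.

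Genes were then read through their loci, the gene body with 10 kb on each side. Of all 57339 regions in loci of protein-coding genes, 22.4% were W6 only and 8.24% W2 only, and a gene list is read against these shares. With lists of equal length the same background was 14.3% W6 only and 14.2% W2 only, against which counts at equal length are read. Counts over whole loci follow gene length, so the gene models with the most exclusive regions were also very long. Gm20388, a model of 4435 kb, held 70 W6-only and 26 W2-only regions. The model named Fgfr2, an FGF receptor, spans 2961 kb and held 48 and 15. A region within so long a span cannot be assigned to the named gene. In both models, limiting the lists to equal length evened the counts (40 and 42, 29 and 28). Other loci were less even. Sox5, a SOX factor of cartilage and neural cells, held 19 W6-only and 0 W2-only regions beside 19 shared ones, and 15 and 0 at equal length. Its 19 regions scored 3.26 to 10.5 with a median of 5.95, 17 had no peak at D0 or W1, 15 had one at W12, and 6 held an AP1 and 3 a SOX word. Auts2, linked to neuronal development, held 28 W6-only and 5 W2-only regions (19 and 3 at equal length), 20 of the 28 without an early peak. Gpc6, a heparan sulphate proteoglycan, held 20 and 2 (11 and 2), none of the 20 with an early peak and 14 with a W12 peak. The others of the first 8 were Pde4d, a cAMP phosphodiesterase (20 and 3, at equal length 11 and 7), Macrod2 (26 and 7, at equal length 13 and 10) and Gm37240 (28 and 7, at equal length 16 and 9).

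The loci with the most W2-only regions held several transcription factors. Zbtb20, a zinc finger repressor, held 12 W2-only and 4 W6-only regions beside 25 shared ones, 5 of the 12 with a GATA word and a highest score of 21.1. Bach2, a bZIP repressor, held 10 and 2, and 7 of the 10 had a D0 peak. Foxn3, a forkhead repressor, held 10 and 5, and Nfib, a factor of hair follicle stem cells, 10 and 8. Arl15, a small GTPase, held 11 and 7, Rad51b, of DNA repair, 11 and 11, and Gm42906 10 and 11, and Foxn3, Bach2, Nfib and Gm42906 were tied. With lists of equal length each of these had more W2-only than W6-only regions: 11 and 3 in Zbtb20, 14 and 1 in Bach2, 8 and 1 in Foxn3, 12 and 4 in Nfib, 11 and 3 in Arl15, 11 and 1 in Rad51b and 11 and 8 in Gm42906.

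**Figure D5:**
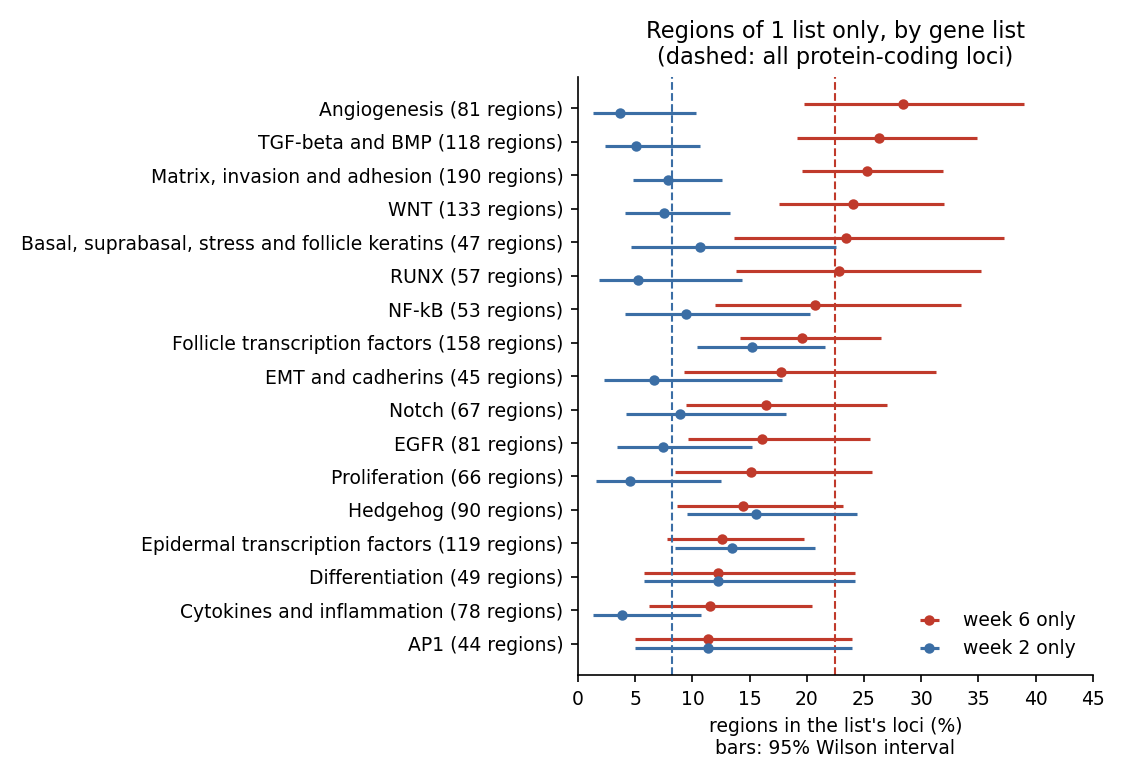
Percent of the regions in the loci of 17 gene lists that were W6 only or W2 only, with the shares over all protein-coding loci (22.4% and 8.24%) as dashed lines. Angiogenesis has the highest W6-only share (28.4%) and Hedgehog the highest W2-only share (15.6%).

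Loci of epidermal transcription factors held a smaller W6-only share and a larger W2-only share than all loci. Their 15 loci held 15 W6-only regions (12.6%), 16 W2-only regions (13.4%) and 88 shared ones, and at equal length 3 and 24. Trp63, the master factor of stratified epithelium, held 5 W6-only, 5 W2-only and 17 shared regions, and Grhl3, of barrier formation, 2, 2 and 6. Gata3, which drives epidermal differentiation and follicle inner sheath fate, held 2, 2 and 4. Its intronic W2-only region chr2:9860133-9860581, printed above, scored 36.7 at D0, 44.0 at W1 and 14.2 at W2, had no peak at W6 and scored 3.29 at W12. A second one, chr2:9867233-9867525, scored 3.06, 3.49 and 5.77 and was missing at W6, with 4.30 at W12. Both held a GATA word, while the Gata3 promoter stayed open with 33.0 at W2 and 31.1 at W6. The first region thus had no W6 peak, after a lower score at W2 than at W1, while the promoter score hardly differed. Depth is unknown, so a missing peak does not show closed chromatin. At equal length the Gata3 locus held 3 W2-only regions and no W6-only region. In order of W6-only, W2-only and shared regions, Klf4 and Klf5, zinc finger factors of barrier and progenitor cells, held 0, 1 and 3, and 2, 1 and 4. The AP2 factors Tfap2a and Tfap2c held 1, 0 and 7, and 0, 2 and 5. Ovol1 held 1, 0 and 7, the Notch target Hes1 1, 1 and 5, and Cebpb 1, 2 and 5. Gata6, Grhl1, Cebpa and Ets2 held shared regions alone (1, 8, 5 and 7).

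Follicle transcription factors had exclusive regions on both sides. Their 15 loci held 31 W6-only (19.6%), 24 W2-only (15.2%) and 103 shared regions, and 13 and 32 exclusive ones at equal length, so that the order turned. In the order of W6-only, W2-only and shared, Nfib held 8, 10 and 23 and Nfix, its relative, 2, 3 and 10. Tcf7l1 and Tcf7l2, which bind the WNT effector beta-catenin, held 4, 4 and 13, and 3, 3 and 16, and Nfatc1, of stem cell quiescence, 3, 3 and 12. Foxc1, which guards quiescence too, held 2, 1 and 3. The stem cell factors Lhx2 and Tbx1 held 1, 0 and 4, and 1, 0 and 2. The SOX factors Sox4 and Sox21 held 2, 0 and 4 each, and the hair shaft factor Dlx3 3, 0 and 3. Sox9, Msx2, Hoxc13 and Foxi3 held shared regions alone (2, 4, 2 and 1).

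Most W6-only regions of the RUNX loci lay in Runx2. The 4 loci held 13 W6-only (22.8%), 3 W2-only (5.26%) and 41 shared regions, at shares near those of all loci, and 6 and 2 exclusive ones at equal length. Runx2, known from bone and from tumours, held 9 W6-only, 1 W2-only and 18 shared regions (5 and 1 exclusive at equal length). Its W6-only regions scored 3.51 to 10.2 with a median of 3.85, 8 of 9 had no peak at D0 or W1, 6 had one at W12, and 4 held an AP1 and 2 a RUNX word. Runx1, of hair follicle stem cell activation, held 3, 2 and 17, and Cbfb, the common partner of the RUNX proteins, 1, 0 and 6. Runx3 held no region in either list.

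The loci of the AP1 genes themselves held as many W2-only as W6-only regions. Their 9 loci held 5 W6-only (11.4%), 5 W2-only (11.4%) and 34 shared regions, and 4 and 6 exclusive ones at equal length. Junb, Jund and Jun held shared regions alone (6, 2 and 1). In the order of W6-only, W2-only and shared, Fos held 1, 0 and 5, Fosb 0, 1 and 6, Fosl1 1, 0 and 3, Fosl2 1, 3 and 2, and Atf3 and Batf, which pair with JUN proteins, 1, 1 and 8, and 1, 0 and 1. NF-kB loci held 11 W6-only (20.8%), 5 W2-only and 37 shared regions (9 and 4 exclusive at equal length), of which Nfkb1, the precursor of p50, held 6, 1 and 13. Nfkb2 held 1, 1 and 3, Relb 1, 0 and 3, Rela 0, 1 and 3, Rel 0, 0 and 6, and the inhibitors Nfkbia and Nfkbiz 2, 0 and 5, and 1, 2 and 4.

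Hedgehog loci had the highest W2-only share of the 17 lists, with an interval that overlaps those of the follicle and epidermal factors. It did not keep this rank at equal length, where its share was 20.3% and that of differentiation loci 28.6%. This pathway drives hair follicle growth and basal cell carcinoma, with SHH as ligand, PTCH1 as a receptor that holds back SMO, and GLI factors as its output. The 12 loci held 13 W6-only (14.4%), 14 W2-only (15.6%) and 63 shared regions (5 and 15 exclusive at equal length). The ligand Shh held 2 W6-only regions and no other. In the order of W6-only, W2-only and shared, the receptor Ptch1 held 1, 0 and 4, Smo 1, 1 and 5, and the effectors Gli1, Gli2 and Gli3 2, 0 and 3, 0, 1 and 13, and 2, 3 and 12. The inhibitor Sufu held 3, 0 and 9. The co-receptors Cdon, Boc and Gas1 held 0, 4 and 4, 0, 3 and 9, and 1, 0 and 1, and the decoy Hhip 0, 2 and 0. In the full lists Shh, Ptch1, Gli1 and Sufu thus held W6-only but not W2-only regions, and Cdon, Boc and Hhip the reverse. At equal length most of this contrast was gone: Shh, Gli1, Sufu and Hhip held no exclusive region, and Ptch1 held 1 W2-only region. Cdon and Boc still held 3 W2-only regions each. The 4 W2-only regions of Cdon scored 3.97 to 11.7.

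Keratin loci held 11 W6-only (23.4%), 5 W2-only (10.6%) and 31 shared regions, and 0 and 6 exclusive ones at equal length. In the order of W6-only, W2-only and shared, the basal keratins Krt5, Krt14 and Krt15 held 1, 1 and 6, 1, 0 and 5, and 0, 2 and 1. The suprabasal Krt1 and Krt10 held 2, 0 and 2, and 3, 1 and 1. The stress keratins Krt6a and Krt6b held the same 2 W6-only regions, with 4 and 0 shared ones, and Krt16 and Krt17 0, 0 and 3, and 1, 0 and 5. The follicle keratins Krt75 and Krt79 held 1, 0 and 4, and 0, 1 and 4, and Krt24 1 shared region. At promoters open at both times, scores went from 20.5 to 12.9 at Krt5, 16.3 to 13.2 at Krt14, 9.99 to 5.49 at Krt15 and 5.56 to 3.23 at Krt10. They went from 16.8 to 13.1 at Krt17, from 15.6 to 26.8 at Krt6a and from 19.3 to 29.5 at Krt16. The basal and suprabasal keratins named were thus lower at W6 and Krt6a and Krt16 higher, and no keratin promoter reached 2-fold.

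The remaining lists were read in the same way. Angiogenesis loci held 23 W6-only (28.4%), 3 W2-only (3.70%) and 55 shared regions (12 and 6 exclusive at equal length). TGF-beta and BMP loci held 31 (26.3%), 6 and 81 (10 and 14 at equal length, where the order turned), and matrix, invasion and adhesion loci 48 (25.3%), 15 and 127 (24 and 15). WNT loci held 32 (24.1%), 10 and 91 (14 and 14). Several of these differ little from the 22.4% of all loci. W6-only shares were 17.8% for epithelial-mesenchymal transition (8, 3 and 34 regions), 16.4% for Notch (11, 6 and 50), 16.0% for EGFR (13, 6 and 62), 15.2% for proliferation (10, 3 and 53), 12.2% for differentiation (6, 6 and 37) and 11.5% for cytokines (9, 3 and 66, with 22 of 23 genes matched). At equal length, with W6-only regions first, these lists held 7 and 7, 8 and 13, 9 and 12, 7 and 10, 3 and 12, and 9 and 6 exclusive regions, so that the order turned for Notch, EGFR and proliferation. Of the 17 lists, 2 had a W6-only interval that left out the share of all loci, both from below, epidermal transcription factors and cytokines. At equal length the cytokine share was 12.5%, near the 14.3% of all loci. For the W2-only share there were 3, all from above: Hedgehog, follicle and epidermal transcription factors. Regions are not replicates and the gene lists were chosen with earlier results known, so these counts describe and do not test. Genes chosen here after their values were seen were Tgfbr2, the type II TGF-beta receptor, with 8 W6-only, 0 W2-only and 4 shared regions that scored 3.26 to 9.72 at W6, and Lama3, a chain of the basement membrane laminin, with 9, 0 and 14. At equal length these held 4 and 7 W6-only regions.

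Promoter peaks were mostly present at both times. Of 21840 protein-coding genes, 637 (2.92%) had a promoter peak within 1 kb of a TSS at W6 only, 193 (0.884%) at W2 only and 12740 at both. In shared promoters the median log2 ratio was -0.07. All 15 epidermal transcription factors, all 7 NF-kB genes and all 10 EGFR genes had a promoter peak at both times. Of the list genes, 16 had a W6-only promoter when the cell type markers Cd34 and Cd74 are included, and Zeb2, a repressor of epithelial genes, was the one W2-only promoter (5.70, with 4.63 at W12). Follicle stem cell genes were among them: Lgr5, the WNT-amplifying receptor of hair follicle stem cells, scored 5.73 at W6 and 7.73 at W12, and Cd34 5.90 and 3.03. The gate selects cells without surface CD34, and which cells gave the Cd34 promoter peak was not tested. Of the 24 genes of matrix, invasion and adhesion, the longest list, 5 were W6 only. Mmp10, a stromelysin, scored 13.2 at W6, with 7.49 at D0 and 24.1 at W12, Mmp14, a membrane-bound collagenase, 5.24 with 4.54 at D0, Mmp13, a collagenase, 3.26 with an AP1 word, Mmp9, a gelatinase, 3.08, and Adam12, a metalloprotease, 3.26. The mesenchymal factor Twist1 scored 4.85, the WNT ligand Wnt4 3.14, the WNT agonist Rspo1 3.58 and the cell cycle gene Ccnd2 5.25. Flt1, a VEGF receptor, had 3 such regions (3.06 to 5.58), Lif, an interleukin 6 family cytokine, scored 4.78, and Sprr2d, of the cornified envelope, 4.26. Several of these had been open at D0 or W1, among them Mmp10, Mmp14, Lif (6.77 at W1), Ccnd2 (5.53 at W1) and Wnt4 (6.35 at W1). All 3 Flt1 regions had peaks at D0 and W1. Those of 3.06 and 3.59 at W6 had scored 5.86 at D0 and 6.50 at W1, and that of 5.58 had scored 3.30 and 3.06. With lists of equal length the promoters of Ccnd2, Cd34, Flt1, Lgr5, Mmp10, Mmp14 and Twist1 were still W6 only and that of Zeb2 W2 only. Adam12, Cd74, Lif, Mmp9, Mmp13, Rspo1, Sprr2d and Wnt4 then had a peak in neither. The keratinocyte marker Col17a1, whose promoter was shared in the full lists (3.10 at W2 and 6.65 at W6), became W6 only.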

How the data were processed

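Following the methods of the study, read pairs were mapped by the authors to GRCm38 with PEPATAC. They merged the 2 replicates of a group, called peaks with MACS2 and removed peaks with a low normalized score. The submitters' processing notes name Bowtie2 2.2.9, MACS2 2.1.1, Picard 2.3.0, SAMtools 1.9 and deepTools 2.5.4. For each peak the authors deposited a normalized score, a fold enrichment ratio, a −log10 q-value and a summit position. By the study's methods the score was normalized to offset differences in depth, with a threshold of 3. The files give neither the formula nor the read depth. Here peaks of W2 and W6 were merged at an overlap of at least 1 bp, and a region took the highest score of its peaks. Genes came from GENCODE M21 and words were matched in the central 200 bp. Named were the 6 regions of highest score per exclusive class, the 4 largest ratios either way among shared regions with a score of at least 10, list genes with an exclusive promoter, every gene of 7 lists and the 8 loci with the most exclusive regions of each kind. A few genes that this rule names are not reported here. Members and lists were chosen with earlier results of these data known. Alternatives were a common q-value, a score minimum of 5, lists of equal length, wider or summit-centred scans, larger overlap, TSS distance and no adjacent regions. The computations were tested on simulated lists and run with Python 3.11.15, NumPy 2.4.6, pandas 2.3.3 and matplotlib 3.10.9.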

Additional observations from a re-analysis of the deposited data

How the results depend on the processing

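Across 9 settings, 3 of them chosen after seeing the data (equal length by fold enrichment, the summit-centred scan and leaving out exclusive regions within 500 bp of a shared one), 61 values moved, 47 stayed within their interval and 10 counts of regions stayed within 1.5 times. No log2 ratio changed sign. The share near a TSS was higher in W2-only regions except with the common −log10 q minimum, where the order turned (7.04 and 10.8). Larger overlap and the summit-centred scan moved nothing. In what follows shares are in percent and pairs are W2 only, then W6 only. A common −log10 q minimum of 14.5 gave 3636 W2-only, 13079 W6-only and 32897 shared regions, a log2 ratio of W6 only to W2 only of 1.85, a median log2 score ratio of -0.15, AP1 13.5 and 27.5, RUNX 14.03 and 17.9, GATA in W6 only 7.23, a D0 peak in 73.3 of W2 only and a W12 peak in 78.5 of W6 only. A score of at least 5 gave 12415 W6-only regions, 0.87, -0.085, AP1 12.99 and 28.3, RUNX in W2 only 13.8, SOX in W6 only 7.62, a W12 peak in 50.4, and 8.40 and 7.59 near a TSS. Lists of equal length gave 10836 W6-only regions, 0.14, -0.048, AP1 13.1 and 29.5, RUNX 13.5 and 20.1, GATA in W2 only 14.9, SOX in W6 only 7.79, a D0 peak in 55.5, a W12 peak in 53.8, and 9.20 and 6.45 near a TSS. Equal length by fold enrichment gave 10900 and 11697 regions, 0.10, -0.025, AP1 13.5 and 29.0, GATA in W2 only 13.9, RUNX in W6 only 19.8, SOX in W6 only 7.89, a D0 peak in 57.3, and 9.97 and 5.37 near a TSS. Scanning the full region gave AP1 14.7 and 31.4, GATA 22.6 and 13.6, RUNX 18.1 and 28.3, and SOX 8.75 and 10.9. A TSS distance of 5 kb gave 16.8 and 16.4. Without adjacent regions AP1 in W6 only was 27.2, and 5.34 and 5.14 lay near a TSS. The causes of these shifts were not tested beyond what each setting removes. No paired analysis was possible because the replicates were merged before peak calling, and for the same reason no replicate could be left out. Depth is unknown, so a missing peak does not show closed chromatin.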

Other observations

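These items were chosen after their values were seen. Outside the gene lists, the 4 W6-only promoters of highest score were those of Fcrl1, a B-cell receptor-like gene (19.1, with 19.8 at W12), Gm3336 (17.2, with 3.94 at D0 and 12.3 at W1), Pate1 (16.7), and Prr9, in the epidermal differentiation complex (16.6, with 13.9 at W12). Of the immune markers, Cd79a and Ptprc had no promoter peak at either time, while Cd74 had one at W6 (3.92, with 8.45 at W12). Pou2af1, another promoter outside the lists that was W6 only, scored 11.1 at W6 and 10.5 at W12. Which cells gave these peaks was not tested. The 4 W2-only promoters of highest score were H2-Q6, of the major histocompatibility complex (13.7, with 6.12 at D0, 17.04 at W1 and 15.1 at W12), Skint4, of a family that acts on skin T cells (13.7, with 27.1 at D0 and 18.6 at W1), the WNT ligand Wnt8a (13.2, with no peak at D0 or W1), and Zim1, an imprinted zinc finger gene (13.1, with 15.4 at D0). Of these 4, Wnt8a alone had no peak before DOX.

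Single loci were uneven in both directions. Adgrl3, an adhesion receptor, held 15 W6-only, 0 W2-only and 5 shared regions, all 15 without a D0 or W1 peak and 8 with a W12 peak (7 W6-only and 0 W2-only regions at equal length). Ank3, ankyrin G, held 18, 0 and 28, and at equal length 11 W6-only and 4 W2-only regions. Dusp10, a MAP kinase phosphatase, held 0 W6-only, 7 W2-only and 6 shared regions (0 and 9 exclusive at equal length), and Rora, a nuclear receptor, 2, 9 and 17 (0 and 6 at equal length). The CTCF word was found in 6.24% of W6-only regions that had been open at D0 or W1, against 1.77% of those first seen at W6 and open at W12. On chromosome X there were 1.80 W6-only regions for each W2-only region, below the range of the autosomes (2.50 to 3.66).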
